A study of Bos taurus with 24 samples.

Results

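The hypoxia-inducible factor (HIF) pathway outside glycolysis was followed across 5 groups of bovine granulosa cells. A list of 35 genes, named by symbol, set the members: HIF subunits, the oxygen sensors that control them, and target genes other than the glycolytic ones. Of these, 34 were found among the 27607 genes of the deposited count table and 32 were among the 14298 genes tested. HILPDA, a lipid droplet protein, has no value here because the table entry at its position also covers another gene. STC2 and CA12 were found but had too few counts to test.

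The RNA came from cumulus cells of late antral follicles (late_CC, 5 libraries), cumulus cells of early antral follicles (early_CC, 5), mural granulosa cells of late antral follicles (late_MGC, 5), mural granulosa cells of early antral follicles (early_MGC, 5) and granulosa cells of secondary follicles (secondary_GC, 4). Cumulus cells surround the oocyte, mural cells line the follicle wall, and the antrum is the fluid cavity that opens between them. The labels give no treatment, genotype, age or breed, and do not say whether replicates came from separate animals, so p-values measure the spread between these samples, which may be technical. The study asked at which stages granulosa cells can regrow transzonal projections, the processes by which they touch the oocyte, and whether their transcriptomes change at the same stages.

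HIF is a pair of proteins, an oxygen-labile alpha subunit and the stable partner ARNT. Where oxygen is plentiful, EGLN enzymes hydroxylate the alpha subunit, VHL recognises the hydroxylated form and the proteasome destroys it; where oxygen is scarce, the alpha subunit persists and switches on genes for vessel growth, mitophagy, pH control, collagen maturation and chromatin demethylation. The granulosa layer has no blood vessels of its own before ovulation, so its oxygen must diffuse through the follicle. HIF is controlled mainly as a protein, and protein was not measured here.

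Total counts ran from 8379801 to 31762400 per library. Libraries late_MGC 3 and late_CC 3 stood apart, with mean correlations of 0.886 and 0.929 with the rest of their group, against 0.943 or more for every other library. Markers of granulosa cells (12 genes, such as INHA, INHBA and FSHR) summed to 603 counts per 1000000 (CPM) in late_MGC 3, against 4888 to 7859 CPM in the other late_MGC libraries. They summed to 3184 CPM in late_CC 3, against 12320 to 20840 CPM in the other late_CC libraries. The genes of the list did not move together. KITLG was higher in late_MGC 3, at 52.3 CPM against 2.78 to 5.17 CPM, while FSHR was lower, at 10.6 CPM against 302 to 381 CPM. In late_CC 3, FSHR stood at 301 CPM against 330 to 397 CPM, and INHBA at 191 CPM against 4890 to 11334 CPM. Theca and stroma markers (11 genes) summed to 2159 CPM in late_MGC 3 and to 248 to 436 CPM in the other 4. Most genes of that list were higher in late_MGC 3 than in any of the other 4. Among them were DCN at 276 CPM (2.22 to 3.69 CPM in the other 4), PDGFRA at 145 CPM (1.23 to 5.38 CPM) and COL3A1 at 49.4 CPM (0.121 to 0.38 CPM). MYH11, at 19.9 CPM, lay within the range of the other 4, and only INSL3 lay below it. The stromal gene LUM alone made up 1621 CPM of the sum in late_MGC 3, against 3.73 to 19.2 CPM in the other 4. The theca hormone gene INSL3 stood at 1.87 CPM in late_MGC 3, against 190.4 to 349 CPM in the other 4 and 26.9 to 597 CPM in the libraries of the other groups. Among the 32 tested members, late_CC 3 lay below all other late_CC libraries for 24 (75.0%, against 35.6% of all tested genes), and late_MGC 3 lay above all other late_MGC libraries for 18 (56.25%, against 39.2%). Values without these 2 libraries are therefore given beside the results. Oocyte markers summed to at most 4.0 CPM in any library, with BMP15 at 0 counts in every group.

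Late cumulus cells stood out for these genes. The mean CPM of 26 of the 32 tested members was highest in late_CC, as it was for 34.4% of all tested genes. From early to late antral follicles, 22 members rose in cumulus cells and 1, VHL, fell, with an edgeR quasi-likelihood test and Benjamini-Hochberg adjusted p under 0.05. These were 71.9% of the members, where 45.2% of all tested genes were called, 22.5% higher. Log2 fold changes are given ± SE, also where a gene is said to differ by a value, and CPM as mean ± SD, with n = 5 (4 for secondary_GC). The median log2 fold change of the members was 1.48, against 0.04 for all tested genes. Between late_CC and late_MGC, 22 members were called higher in late_CC and none lower, where 18.9% of all genes were higher and 39.7% called in either direction; the medians were 2.22 and 0.02. Both comparisons use the same late_CC libraries. With late_CC 3 and late_MGC 3 left out, 25 members rose and 1 fell in late_CC against early_CC, where 49.0% of all genes were called, and 26 were higher in late_CC than in late_MGC, where 41.0% were. Over all 5 groups at once, 26 members were called, and 28 without these libraries, against 65.1% and 69.0% of all genes. In these bulk libraries, a change in the share of cells of a type cannot be told apart from a change in the RNA per cell. Summed granulosa markers were also higher, at 14718 ± 7334 CPM in late_CC, 4237 ± 387 CPM in early_CC and 5260 ± 2854 CPM in late_MGC (SD, n = 5 each). INHBA alone averaged 7050 CPM in late_CC. FSHR, by contrast, stood at 301 to 397 CPM in late_CC and 254 to 424 CPM in early_CC, and KITLG was lower in late_CC (0.831 to 2.47 CPM) than in early_CC (4.01 to 10.7 CPM). Summed blood markers were higher too, at 44.6 ± 27.9, 1.65 ± 0.556 and 1.22 ± 0.433 CPM in the same order (SD, n = 5 each). This came mainly through the globin gene HBA, at 0.415 CPM in late_CC 3 and 30.8 to 71.9 CPM in the other late_CC libraries. HBB and PTPRC were at 0 in late_CC. CD68 was found in every late_CC library, at 0.282 to 1.45 CPM, and LAPTM5 and CSF1R in some, at up to 1.47 and 0.59 CPM. The part of these markers in the results was not tested.

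**Figure D1:**
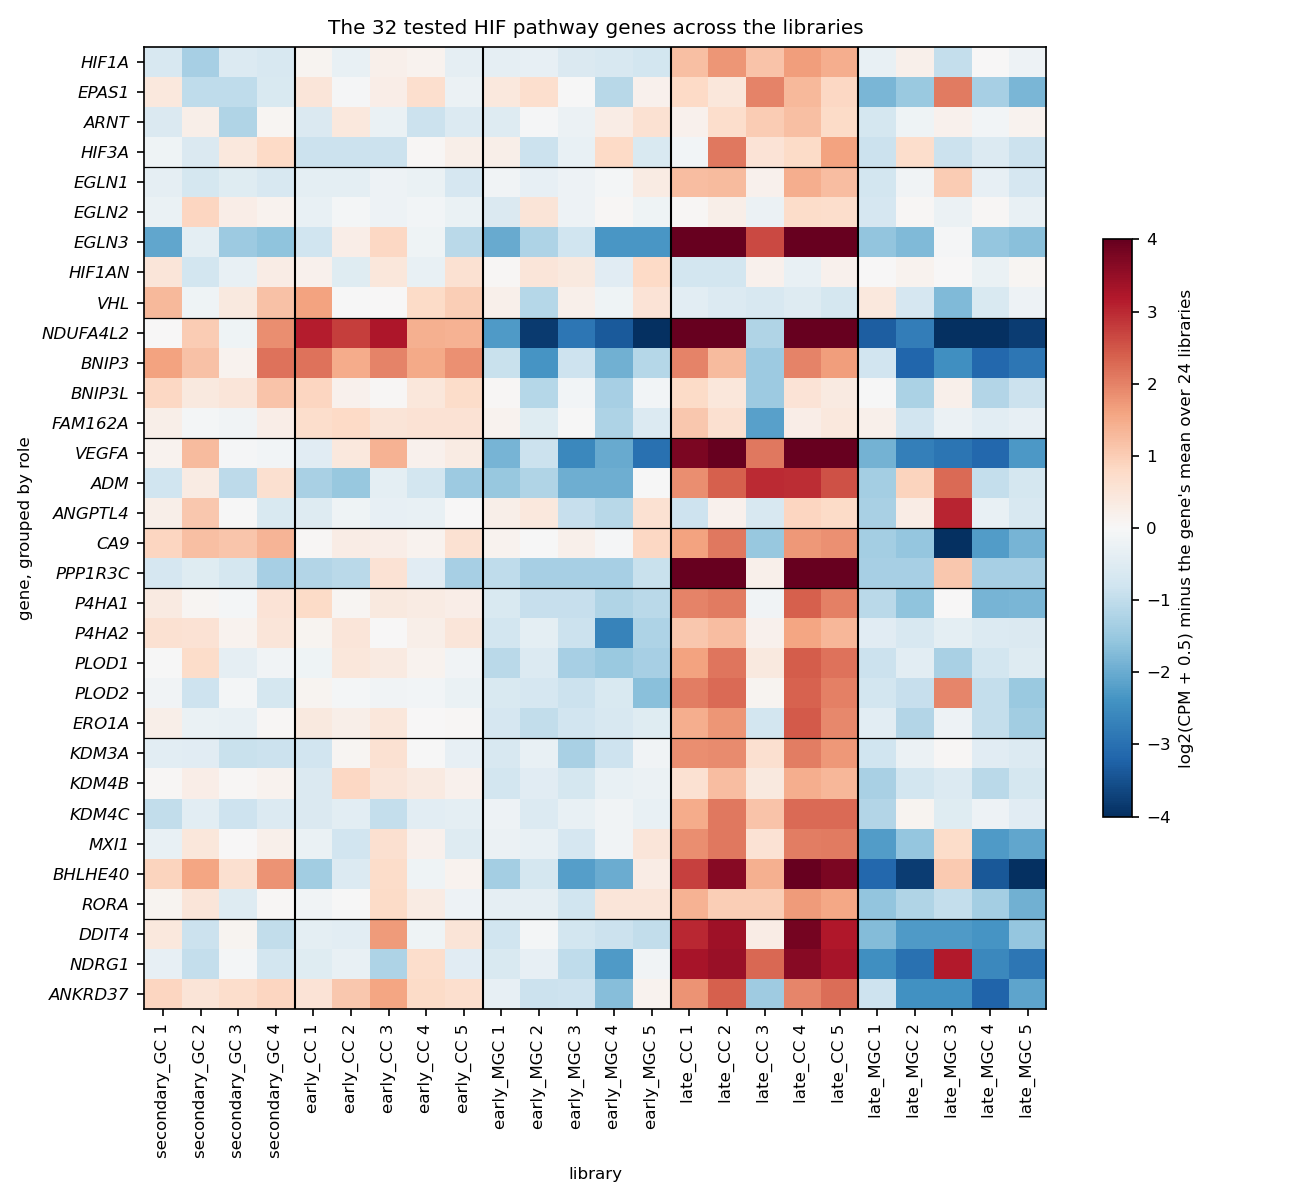
Level of the 32 tested members in each of the 24 libraries, as log2(CPM + 0.5) minus the gene's mean over all libraries (red higher, blue lower; colours saturate at 4 and -4). Columns are libraries by group and rows are genes by role; most rows are red in late_CC, with late_CC 3 paler than the other 4 libraries of its group.

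HIF1A, the main oxygen-regulated alpha subunit (ENSBTAG00000020935, chromosome 10, 73836334 to 73881299 in ARS-UCD1.2), was the most abundant subunit by far. It stood at 2332, 3430.3, 2223, 3240.1 and 2754 CPM in late_CC, against 1087, 820.5, 1149.7, 1119.7 and 779 CPM in early_CC. Mural libraries held 818, 1153, 519, 1017 and 881 CPM in late_MGC and 779, 803, 677, 651 and 605 CPM in early_MGC. The secondary_GC libraries held 640.3, 401, 684 and 647 CPM. Every late_CC library lay above every library of the other groups. The log2 fold change was 1.49 ± 0.22 (adjusted p = 8.0e-06) for late_CC against early_CC and 1.45 ± 0.22 (adjusted p = 1.0e-05) against late_MGC. In mural cells the late against early change was 0.42 ± 0.21 (adjusted p = 0.18), and 0.58 (adjusted p = 0.029) without late_MGC 3. The early_CC libraries all lay above those of secondary_GC, with a log2 difference of 0.78 ± 0.23 (adjusted p = 0.069), which limma-voom and DESeq2 called (0.79, adjusted p = 0.045; 0.72, adjusted p = 0.033).

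To compare genes, levels are given per kilobase of exon and 1000000 counts (RPKM). HIF1A averaged 693 RPKM in late_CC, against 3.45 RPKM for EPAS1, 2.68 RPKM for ARNT and 0.313 RPKM for HIF3A in the same libraries. EPAS1 encodes the second alpha subunit, HIF-2 alpha (ENSBTAG00000003711, chromosome 11, 28734999 to 28828070). It stood at 15, 11.7, 34.4, 21.3 and 15.4 CPM in late_CC and 11.8, 8.11, 10.1, 13.5 and 7.07 CPM in early_CC. In mural cells it stood at 1.98, 2.66, 37, 3.0 and 1.99 CPM in late_MGC and 11.5, 13.8, 8.39, 3.58 and 9.55 CPM in early_MGC, and in secondary_GC at 11.5, 3.9, 3.9 and 5.37 CPM. The highest late_CC and late_MGC values were those of the 2 libraries that stand apart. EPAS1 was called in none of the 6 comparisons. Without late_MGC 3 it was called lower in late_MGC than in early_MGC, at -1.81 (adjusted p = 8.1e-04), against 0.0057 ± 0.62 with it. Late_CC against early_CC gave 0.96 ± 0.62 (adjusted p = 0.21), and was called when these groups were fitted alone (0.93, adjusted p = 0.020). Late_CC against late_MGC likewise gave 0.99 ± 0.62 with it, 1.9 with limma-voom (adjusted p = 0.0038) and 2.81 (adjusted p = 1.9e-06) without it.

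ARNT, the partner of the alpha subunits, averaged 7.84 ± 2.12 CPM in late_CC and 3.39 ± 1.49 CPM in early_CC, and rose (1.22 ± 0.33, adjusted p = 0.0045) although the groups overlapped. Its means in the other groups lay between 3.47 CPM in secondary_GC and 4.53 CPM in early_MGC. HIF3A, an alpha subunit with splice forms that inhibit the others, had group means of 0.199 to 1.57 CPM, the highest in late_CC. Its change from early_CC was not called (2.96 ± 1.25, adjusted p = 0.056), but was without the 2 libraries that stand apart (3.1, adjusted p = 0.034).

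The prolyl hydroxylases, which mark the alpha subunits for destruction, rose with HIF1A in cumulus cells. EGLN1, the main oxygen sensor of most cells (ENSBTAG00000053296, chromosome 28, 4087440 to 4150379), stood at 317, 326, 152, 365 and 314 CPM in late_CC and 103, 103, 117, 110.4 and 84.1 CPM in early_CC. It stood at 80.6, 121, 273, 107 and 83.3 CPM in late_MGC, 120.4, 107, 117, 128 and 167 CPM in early_MGC and 105.2, 82.5, 95.6 and 85.7 CPM in secondary_GC. The late_CC libraries lay above all early_CC libraries, but late_CC 3 lay below late_MGC 3. EGLN1 rose from early to late cumulus cells by 1.5 ± 0.24 (adjusted p = 2.6e-05), and was higher in late_CC than in late_MGC by 0.97 ± 0.24 (adjusted p = 0.0021), or 1.49 without the 2 libraries that stand apart. EGLN3, an inducible hydroxylase that is itself a HIF target (ENSBTAG00000008172, chromosome 21, 44387137 to 44416154), was low outside late cumulus cells. It stood at 49.5, 84.5, 15.3, 72.1 and 74.1 CPM in late_CC, against 0.945, 2.5, 3.94, 1.72 and 0.683 CPM in early_CC. It stood at 0.348, 0.242, 1.93, 0.361 and 0.285 CPM in late_MGC, 0.123, 0.56, 0.959, 0 and 0 CPM in early_MGC and 0.0987, 1.4, 0.425 and 0.331 CPM in secondary_GC. The lowest late_CC value, 15.3 CPM, was above the highest value of any other group. The log2 fold changes were 4.9 ± 0.73 (adjusted p = 1.9e-05) against early_CC and 6.36 ± 0.81 (adjusted p = 2.6e-06) against late_MGC, and 7.27 against late_MGC without late_MGC 3.

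EGLN2, the remaining hydroxylase, averaged 44.5 ± 12.9 CPM in late_CC and 30.6 ± 2.1 CPM in early_CC, a rise of 0.53 ± 0.22 (adjusted p = 0.047). That call was lost without any of 8 of the 10 libraries left out in turn (the exceptions were late_CC 1 and late_CC 3) and without the count filter, at adjusted p = 0.054 to 0.14. VHL, which recognises hydroxylated alpha subunits, was the member that fell, to 3.71 ± 0.324 CPM in late_CC, against 10.3 ± 5.22 CPM in early_CC (-1.47 ± 0.42, adjusted p = 0.0059). The groups did not overlap, at 3.31 to 4.18 CPM in late_CC and 5.66 to 18.3 CPM in early_CC. HIF1AN, the asparaginyl hydroxylase that keeps coactivators from the alpha subunits, was called in no comparison, with group means of 6.94 to 10.3 CPM. In late_CC, EGLN1 averaged 76.1 RPKM, EGLN3 29.1 RPKM and EGLN2 22.1 RPKM.

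**Figure D2:**
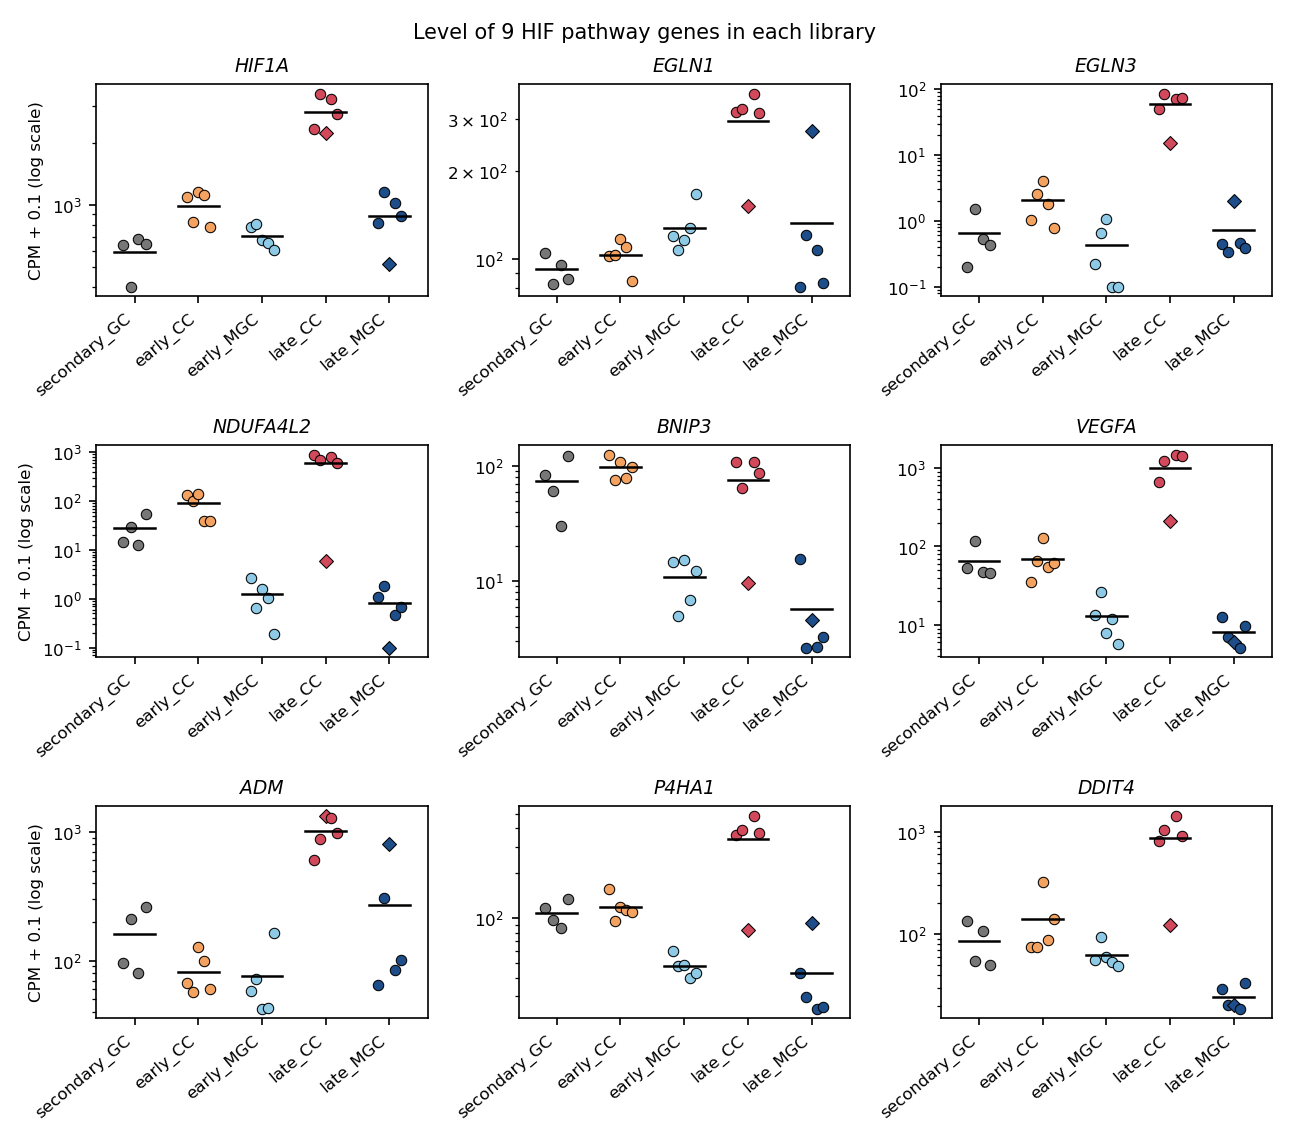
CPM + 0.1 on log axes for 9 members in each library, by group; points are libraries, diamonds are late_CC 3 and late_MGC 3, and bars are group means. EGLN3 was at 15.3 to 84.5 CPM in late_CC and at most 3.94 CPM elsewhere, while BNIP3 was high in secondary_GC, early_CC and 4 late_CC libraries and at most 15.5 CPM in mural libraries.

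Of the 4 genes acting on mitochondria, NDUFA4L2 and BNIP3 were higher in cumulus than in mural cells at both antral stages, and only NDUFA4L2 rose in late cumulus cells. NDUFA4L2, which lowers respiratory complex I activity when oxygen is low (ENSBTAG00000031503, chromosome 5, 56205859 to 56208161), stood at 874, 701, 5.95, 789 and 595 CPM in late_CC, against 132, 101, 139, 39.1 and 38.6 CPM in early_CC. Its levels were 1.01, 1.69, 0, 0.361 and 0.569 CPM in late_MGC and 2.59, 0.56, 1.5, 0.955 and 0.0932 CPM in early_MGC, and 14.6, 29.5, 12.8 and 53.7 CPM in secondary_GC. All cumulus libraries lay above all mural libraries, and late_CC 3 lay below every early_CC library. NDUFA4L2 was higher in late_CC than in late_MGC by 9.41 ± 1.17 (adjusted p = 3.4e-06), and in early_CC than in early_MGC by 6.18 ± 1.04 (adjusted p = 9.9e-04). In early_MGC it was lower than in secondary_GC (-4.43 ± 1.0, adjusted p = 0.010), a call that limma-voom lost (-5.03, adjusted p = 0.15). Without early_MGC 1 these early changes were 6.79 and -5.03. The rise from early_CC to late_CC was 2.69 ± 0.84 (adjusted p = 0.013), and 3.01 (adjusted p = 1.5e-04) without the 2 libraries that stand apart; limma-voom gave 1.84 (adjusted p = 0.078).

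BNIP3, a receptor that marks mitochondria for removal by mitophagy (ENSBTAG00000017804, chromosome 26, 51221616 to 51226873), showed the division by cell type without a rise in late cumulus cells. It stood at 108, 64.9, 9.55, 108 and 87.2 CPM in late_CC and 124, 76.1, 109, 78.3 and 97.7 CPM in early_CC, a log2 difference of -0.38 ± 0.54 (adjusted p = 0.59). It stood at 15.5, 2.54, 4.5, 2.58 and 3.18 CPM in late_MGC, 14.4, 4.83, 15.1, 6.8 and 12 CPM in early_MGC and 82.8, 60.9, 29.8 and 122 CPM in secondary_GC. Apart from late_CC 3, all cumulus libraries lay above all mural ones. BNIP3 was higher in early_CC than in early_MGC by 3.08 ± 0.59 (adjusted p = 0.0020), higher in late_CC than in late_MGC by 3.43 ± 0.60 (adjusted p = 1.1e-04), and lower in early_MGC than in secondary_GC (-2.63 ± 0.60, adjusted p = 0.010). Without late_MGC 1 the late difference was 4.38, and the change from early to late mural cells was -1.69 (adjusted p = 0.024), against -0.73 ± 0.56 with it. BNIP3L, the related receptor NIX, and FAM162A, a mitochondrial protein induced by hypoxia, were called in none of the 6 comparisons. BNIP3L averaged 265 ± 110.0 CPM in late_CC and 153 ± 72.8 CPM in late_MGC, and FAM162A 344 ± 184 and 221 ± 54.5 CPM. When the 2 libraries that stand apart were left out, both were called higher in late_CC than in late_MGC (0.98, adjusted p = 0.0091; 0.65, adjusted p = 0.038).

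The secreted factor VEGFA, which draws and maintains blood vessels (ENSBTAG00000005339, chromosome 23, 17281915 to 17297193), had the smallest adjusted p of all members in a comparison of 2 groups. It stood at 663, 1219, 209.5, 1458 and 1404 CPM in late_CC, against 35.1, 65.7, 129, 55.1 and 61 CPM in early_CC. It stood at 12.7, 6.95, 5.95, 5.05 and 9.49 CPM in late_MGC and 13.1, 26.6, 7.79, 11.7 and 5.69 CPM in early_MGC. In secondary_GC it stood at 53.5, 117, 46.9 and 45.2 CPM. The late_CC libraries lay above every other library, and each mural library lay below every library of early_CC and secondary_GC. VEGFA was higher in late_CC than in late_MGC by 6.67 ± 0.59 (adjusted p = 3.9e-08) and rose by 3.81 ± 0.51 (adjusted p = 5.3e-06) from early to late cumulus cells. It was higher in early_CC than in early_MGC by 2.3 ± 0.49 (adjusted p = 0.0039), and lower in early_MGC than in secondary_GC (-2.19 ± 0.50, adjusted p = 0.010). The log2 difference between early_CC and secondary_GC was 0.11 ± 0.49 (adjusted p = 0.94). Leaving out late_CC 3 and late_MGC 3 gave 6.8 and 4.07 for the 2 comparisons of late_CC.

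ADM, the vasodilator peptide adrenomedullin (ENSBTAG00000021048, chromosome 15, 42377564 to 42380500), stood at 603, 880.0, 1321, 1274 and 969 CPM in late_CC and 67.2, 57.3, 127, 99 and 59.8 CPM in early_CC. In mural cells it stood at 64.7, 306, 797, 85.1 and 101 CPM in late_MGC and 58.2, 71.8, 42.3, 42.8 and 163 CPM in early_MGC, and in secondary_GC at 94.9, 209.8, 80.2 and 261 CPM. Here late_CC 3 was the highest library of its group, as was late_MGC 3. ADM rose in late cumulus cells by 3.62 ± 0.58 (adjusted p = 3.6e-05), and was higher in late_CC than in late_MGC by 1.78 ± 0.53 (adjusted p = 0.011), or 2.66 without late_MGC 3. Its rise in mural cells, 1.91 ± 0.54 (adjusted p = 0.015), was 1.04 and not called without late_MGC 3 (adjusted p = 0.079), and was not called when the 2 groups were fitted alone (adjusted p = 0.094). ANGPTL4, an inhibitor of lipoprotein lipase, had group means of 1.26 to 4.23 CPM and was called in no comparison. STC2, the glycoprotein stanniocalcin 2, was found in 3 late_CC libraries, at 1.77, 1.63 and 0.845 CPM, and had 0 counts in the other 21. Its late_CC mean was at least 34.8-fold higher than a limit of 3 counts over all early_CC libraries and at least 28.8-fold higher than the same limit over late_MGC, with no test.

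CA9, a membrane carbonic anhydrase that helps cells to export acid, averaged 92.2 ± 47.8 CPM in late_CC and 7.37 ± 4.58 CPM in late_MGC, and 38.1 ± 6.03 CPM in early_CC, 37.7 ± 10.6 CPM in early_MGC and 70.1 ± 9.97 CPM in secondary_GC. It was thus lowest in late mural cells, and its lowest late_CC library, late_CC 3 at 10.7 CPM, overlapped that group. CA9 was higher in late_CC than in late_MGC (3.37 ± 0.62, adjusted p = 2.1e-04), and fell in mural cells from early to late follicles (-2.19 ± 0.60, adjusted p = 0.014). The mural call was lost when the 2 groups were fitted alone (adjusted p = 0.069), and limma-voom gave -3.31 there and 4.13 for late_CC against late_MGC. The change from early_CC to late_CC was 1.27 ± 0.57 (adjusted p = 0.078), and 1.55 (adjusted p = 2.2e-07) without the 2 libraries that stand apart. CA12, another carbonic anhydrase, had 0 counts in early_CC, early_MGC and late_MGC and a mean of at most 0.00983 CPM in the other groups.

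PPP1R3C, which brings protein phosphatase 1 to glycogen, averaged 17.9 ± 9.75 CPM in late_CC, against 0.393 ± 0.57 CPM in early_CC and 0.439 ± 0.982 CPM in late_MGC. It was at most 1.37 CPM in every library of early_CC, early_MGC and secondary_GC, and its only counts in late_MGC came from late_MGC 3, at 2.2 CPM. The fitted log2 fold changes were 5.46 ± 1.28 (adjusted p = 0.0016) against early_CC and 5.23 ± 1.28 (adjusted p = 0.0026) against late_MGC. They were 6.85 without early_CC 3 and, with limma-voom, 6.35 and 7.51. Without late_MGC 3 and late_CC 3, late_MGC had 0 counts, so that the late_CC mean of 22.2 CPM was at least 613-fold higher than a limit of 3 counts over the remaining 4 late_MGC libraries.

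All 5 genes of collagen hydroxylation and protein folding rose in late cumulus cells and were higher in late_CC than in late_MGC. P4HA1 and P4HA2 are catalytic subunits of prolyl 4-hydroxylase, which stabilises the collagen helix. P4HA1 (ENSBTAG00000032996, chromosome 28, 29067217 to 29167290) stood at 362, 390.4, 83.5, 481 and 373 CPM in late_CC, against 157, 96.1, 119, 114 and 110.4 CPM in early_CC. Its mural levels were 42.8, 29.6, 92.2, 24.7 and 25.1 CPM in late_MGC and 59.9, 47.6, 48.2, 39.4 and 42.5 CPM in early_MGC, and secondary_GC had 118, 96.9, 85.9 and 135 CPM. Only late_CC 3 kept late_CC from standing clear of the other groups. The changes were 1.48 ± 0.33 (adjusted p = 8.2e-04) against early_CC and 2.78 ± 0.35 (adjusted p = 1.0e-06) against late_MGC (3.42 without the 2 libraries that stand apart). P4HA2 (ENSBTAG00000001116, chromosome 7, 22185073 to 22218084) stood at 381, 425, 203, 542 and 453 CPM in late_CC and 193, 251, 182, 214 and 250.3 CPM in early_CC. It stood at 130.1, 114, 138, 122 and 121 CPM in late_MGC, 108, 138, 99.1, 27.6 and 76.5 CPM in early_MGC and 272, 268, 196 and 251 CPM in secondary_GC. Mural libraries were the lowest at both antral stages and did not overlap the cumulus libraries of their stage. P4HA2 rose by 0.87 ± 0.25 (adjusted p = 0.0061) in late cumulus cells, and was higher in late_CC than in late_MGC by 1.46 ± 0.25 (adjusted p = 6.6e-05).

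PLOD1 and PLOD2 hydroxylate collagen lysines before cross-linking. PLOD1 (ENSBTAG00000002052, chromosome 16, 41718717 to 41748319) stood at 609.6, 871, 259, 1072 and 885 CPM in late_CC and 175, 271, 254, 221 and 179 CPM in early_CC. It stood at 109, 148, 80.3, 118 and 139 CPM in late_MGC, 92.9, 135, 79.3, 70.5 and 78.4 CPM in early_MGC and 197, 332, 154 and 179 CPM in secondary_GC. The 5 early_CC libraries lay above every mural library, and 4 late_CC libraries lay above all others. PLOD1 rose by 1.73 ± 0.28 (adjusted p = 2.6e-05) in cumulus cells, and was higher in late_CC than in late_MGC by 2.4 ± 0.29 (adjusted p = 4.8e-07). PLOD2 averaged 679.7 ± 284 CPM in late_CC, against 167 ± 16.2 CPM in early_CC (2.0 ± 0.50, adjusted p = 0.0023). In late_MGC it averaged 210.0 ± 272 CPM, of which 696 CPM in late_MGC 3. Late_CC against late_MGC gave 1.55 ± 0.49 (adjusted p = 0.015), a call lost when the 2 groups were fitted alone (adjusted p = 0.083), and 2.67 without late_MGC 3.

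ERO1A, the oxidase that recharges protein disulphide isomerase (ENSBTAG00000015716, chromosome 10, 11498442 to 11548825), stood at 57.9, 71.2, 12.4, 116 and 80.7 CPM in late_CC and 27.5, 24.4, 28.6, 20.9 and 21.4 CPM in early_CC. It stood at 15.4, 8.88, 18, 10.5 and 7.59 CPM in late_MGC, 12.9, 10.1, 12, 13 and 14.7 CPM in early_MGC and 24.6, 17.2, 16.9 and 21.4 CPM in secondary_GC. Late_CC 3 lay within the mural range and the other 4 of its group were the highest of all. ERO1A rose by 1.43 ± 0.32 (adjusted p = 8.3e-04) in cumulus cells and was higher in late_CC than in late_MGC by 2.25 ± 0.33 (adjusted p = 8.8e-06).

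**Figure D3:**
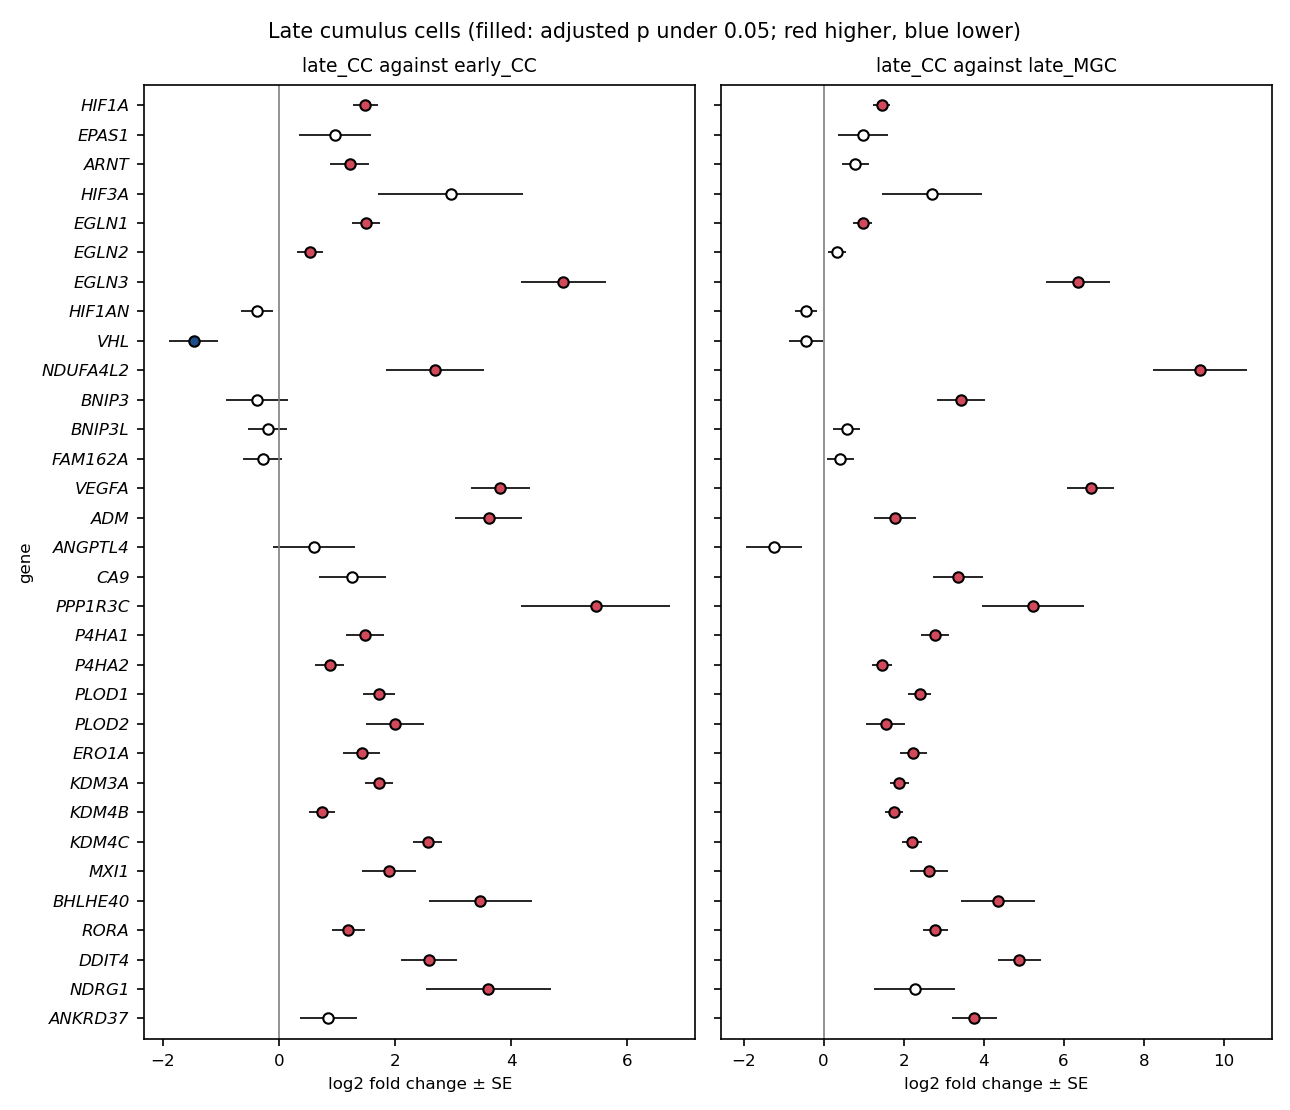
Log2 fold change with its SE for each tested member in late_CC against early_CC (left) and late_CC against late_MGC (right), positive where late_CC is higher; filled points have an adjusted p under 0.05. Called members lie right of 0 in both panels apart from VHL at -1.47 on the left, and NDUFA4L2 reaches 9.41 on the right.

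The 6 regulators of chromatin and transcription all rose in late cumulus cells and were all higher in late_CC than in late_MGC. KDM3A, KDM4B and KDM4C remove methyl groups from histone lysines. KDM3A (ENSBTAG00000013580, chromosome 11, 48378513 to 48434868) stood at 155, 156, 65.6, 176 and 142 CPM in late_CC and 24.8, 44.9, 64.7, 41.6 and 33.7 CPM in early_CC. It stood at 24.1, 36.1, 43.4, 30.8 and 28.9 CPM in late_MGC, 26.6, 34.1, 16.9, 23.7 and 38.3 CPM in early_MGC and 31.2, 30.8, 22.6 and 23.1 CPM in secondary_GC. Even late_CC 3 lay above every other group, by less than 1 CPM over the highest early_CC library. KDM3A rose by 1.72 ± 0.24 (adjusted p = 4.6e-06) in cumulus cells, and was higher in late_CC than in late_MGC by 1.89 ± 0.24 (adjusted p = 1.2e-06). KDM4C (ENSBTAG00000043987, chromosome 8, 37733103 to 38109966) stood at 22, 34, 17.4, 38.3 and 38 CPM in late_CC and 4.85, 5.51, 3.64, 5.47 and 5.66 CPM in early_CC. It stood at 3.06, 8.1, 5.2, 6.49 and 5.41 CPM in late_MGC, 6.48, 5.04, 5.99, 6.8 and 6.06 CPM in early_MGC and 3.55, 5.5, 4.04 and 4.97 CPM in secondary_GC. No other group overlapped late_CC, and the other 4 groups overlapped each other. KDM4C had the smallest adjusted p of the members for late_CC against early_CC (2.57 ± 0.25, adjusted p = 5.8e-08), and was 2.2 ± 0.25 against late_MGC. KDM4B (ENSBTAG00000015487, chromosome 7, 19096391 to 19175953) stood at 22, 34.3, 18.8, 40.2 and 37.1 CPM in late_CC and 9.57, 25.9, 20.2, 18.6 and 16.3 CPM in early_CC. It stood at 5.6, 8.4, 9.75, 6.55 and 8.59 CPM in late_MGC, 8.52, 10.4, 8.69, 11.7 and 12 CPM in early_MGC and 14.8, 17.4, 14.7 and 16 CPM in secondary_GC. Late and early cumulus libraries overlapped, and the late_CC libraries lay above all mural ones. KDM4B rose by 0.75 ± 0.22 (adjusted p = 0.0080) in cumulus cells, and late_CC was 1.76 ± 0.23 above late_MGC.

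RORA, an orphan nuclear receptor (ENSBTAG00000015904, chromosome 10, 48892525 to 49702163), moved in opposite directions in cumulus and mural cells. It stood at 16.7, 12.3, 12.5, 20.8 and 18.5 CPM in late_CC, against 5.45, 6.02, 10.7, 7.76 and 5.22 CPM in early_CC. In mural cells it stood at 1.7, 2.36, 2.84, 2.04 and 1.23 CPM in late_MGC, against 4.63, 4.62, 3.3, 8.59 and 8.62 CPM in early_MGC, and in secondary_GC at 6.51, 8.6, 4.11 and 6.26 CPM. Late and early libraries did not overlap in either cell type. RORA rose by 1.2 ± 0.29 (adjusted p = 0.0017) in cumulus cells and fell in mural cells (-1.47 ± 0.30, adjusted p = 0.0013), and late_CC was 2.8 ± 0.31 above late_MGC (adjusted p = 2.2e-07). MXI1, an antagonist of MYC, averaged 124 ± 41.1 CPM in late_CC and 33 ± 13.5 CPM in early_CC, and 18.2 ± 22.3 CPM in late_MGC. It rose in cumulus cells (1.89 ± 0.46, adjusted p = 0.0020), and late_CC against late_MGC gave 2.64 ± 0.48 (adjusted p = 1.4e-04) and 3.67 without late_MGC 3. BHLHE40, a repressor that also acts in the circadian clock, averaged 534 ± 297 CPM in late_CC, against 47.3 ± 24.7 CPM in early_CC (3.47 ± 0.89, adjusted p = 0.0033). In late_MGC it stood at 104.6 CPM in late_MGC 3 and at 3.72 ± 1.24 CPM in the other 4. Late_CC against late_MGC gave 4.36 ± 0.92 (adjusted p = 8.9e-04), and 6.86 without late_MGC 3; limma-voom gave 5.73. MXI1 and BHLHE40 were called lower in late_MGC than in early_MGC without the 2 libraries (-1.81, adjusted p = 8.7e-06; -2.61, adjusted p = 3.7e-04), while all libraries gave -0.77 ± 0.45 and -0.11 ± 0.81, not called.

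Among stress response genes, DDIT4, which restrains the growth kinase mTOR when energy or oxygen is short (ENSBTAG00000000163, chromosome 28, 28323892 to 28325899), stood at 806, 1044, 122, 1421 and 917 CPM in late_CC, against 74.7, 74.3, 324, 87.1 and 140.5 CPM in early_CC. Its mural levels were 29.3, 20.1, 20.2, 18.7 and 33.4 CPM in late_MGC and 56.4, 93, 59.3, 53.8 and 49.2 CPM in early_MGC, and secondary_GC had 134, 54.4, 107 and 50.1 CPM. Late_CC 3 was within the early_CC range, but above all mural libraries. DDIT4 rose by 2.59 ± 0.48 (adjusted p = 1.7e-04) in cumulus cells (3.18 without early_CC 3), and late_CC was 4.88 ± 0.54 (adjusted p = 3.7e-07) above late_MGC. The late_MGC libraries lay below all early_MGC libraries, without a call (-1.24 ± 0.47, adjusted p = 0.066); without the 2 libraries that stand apart it fell there (-1.15, adjusted p = 0.031). NDRG1, a differentiation and stress protein, averaged 55.6 ± 16.4 CPM in late_CC and 4.51 ± 2.63 CPM in early_CC (3.61 ± 1.07, adjusted p = 0.0096). In late_MGC it stood at 52.6 CPM in late_MGC 3 and at 0.391 ± 0.152 CPM in the other 4. Late_CC against late_MGC was not called (2.28 ± 1.01, adjusted p = 0.080), and reached 6.97 (adjusted p = 2.5e-11) without the 2 libraries that stand apart. ANKRD37, an ankyrin repeat protein known as a HIF target (ENSBTAG00000018453, chromosome 27, 15651437 to 15654048), stood at 34.6, 52.9, 3.25, 38.5 and 47.4 CPM in late_CC and 14.1, 20.8, 29.9, 16.7 and 15.5 CPM in early_CC. It stood at 5.22, 1.39, 1.39, 0.601 and 1.85 CPM in late_MGC, 7.59, 5.04, 5.15, 2.63 and 10.6 CPM in early_MGC and 17.8, 13.9, 15.9 and 17.7 CPM in secondary_GC. All late_CC libraries but late_CC 3 lay above the rest. ANKRD37 was higher in late_CC than in late_MGC (3.76 ± 0.56, adjusted p = 1.5e-05; 4.55 without late_MGC 1), and its change from early_CC, 0.85 ± 0.50, was not called (adjusted p = 0.17) with late_CC 3 included and was without the 2 libraries that stand apart (1.14, adjusted p = 0.011).

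At the early antral stage, cumulus cells already exceeded mural cells for part of the set. Of the 32 members, 8 (25%) were called higher in early_CC than in early_MGC and none lower, where 6.71% of all genes were called higher, 6.39% lower and 13.1% in either direction. Beyond NDUFA4L2, BNIP3 and VEGFA, these were the collagen enzymes P4HA1 (1.22 ± 0.33, adjusted p = 0.017), P4HA2 (1.19 ± 0.25, adjusted p = 0.0033) and PLOD1 (1.17 ± 0.27, adjusted p = 0.0066), with ANKRD37 (1.56 ± 0.51, adjusted p = 0.046) and KDM4B (0.70 ± 0.22, adjusted p = 0.039). ANKRD37 lost its call in each of the 10 fits without 1 library of the 2 groups, without the count filter and with limma-voom (adjusted p = 0.053 to 0.11). KDM4B lost it in 7 of those 10 fits (without early_CC 2, 3 or 4 or early_MGC 1, 2, 3 or 5) and with RLE scaling, limma-voom and the filter at 10 CPM (0.051 to 0.12). HIF1A (0.38 ± 0.21), EPAS1 (0.036 ± 0.62) and ARNT (-0.53 ± 0.33) were not called. With the 2 libraries that stand apart left out, neither of them early, 14 members were called higher and EGLN1 lower (-0.41, adjusted p = 0.044), where 21.4% of all genes were called; the fit estimates the spread over all groups.

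Members were then set against their levels in secondary follicles. In early_MGC, 5 members (15.6%) were called lower than in secondary_GC and none higher, where 4.08% of all genes were called lower, 5.01% higher and 9.1% in either direction. They were NDUFA4L2, BNIP3, VEGFA, P4HA2 (-1.33 ± 0.26, adjusted p = 0.0033) and PLOD1 (-1.1 ± 0.29, adjusted p = 0.018), and PLOD1 lost its call without secondary_GC 2 (-0.80, adjusted p = 0.096). This comparison and the one with early_CC share the early_MGC libraries. With late_CC 3 and late_MGC 3 left out of the fit, 10 members were called lower, P4HA1 (-1.04), BHLHE40 (-2.13) and CA9 (-0.77) among them, and EGLN1 higher (0.62), where 16.4% of all genes were called, 8.33% lower and 8.06% higher. In early_CC no member was called against secondary_GC by edgeR, where 1.99% of all genes were (0.944% higher and 1.05% lower). Of the 32, 4 had an unadjusted p under 0.05, and limma-voom and DESeq2 called 1 each, HIF1A. In that smaller fit, HIF1A (0.78) and KDM3A (0.68) were called higher in early_CC and CA9 lower (-0.86), against 8.3% of all genes, 4.03% higher and 4.27% lower.

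In mural cells, ADM rose and CA9 and RORA fell from early to late antral follicles. These 3 were 9.38% of the members, where 19.1% of all genes were called, 9.77% higher and 9.3% lower. The median log2 fold change was -0.06 for the members and 0.05 for all tested genes. Without late_MGC 3, 7 members were called, and without late_MGC 1, 5. The share of all genes called was not taken for these fits, so the counts cannot be read as more members moving. With both libraries that stand apart left out, 8 members fell and 2, HIF1A (0.58) and PLOD1 (0.63), rose, where 27.1% of all genes were called. Those that fell were NDRG1 (-2.75), BHLHE40, CA9 (-1.87), MXI1, EPAS1, RORA (-1.57), ANKRD37 (-1.2) and DDIT4.

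**Figure D4:**
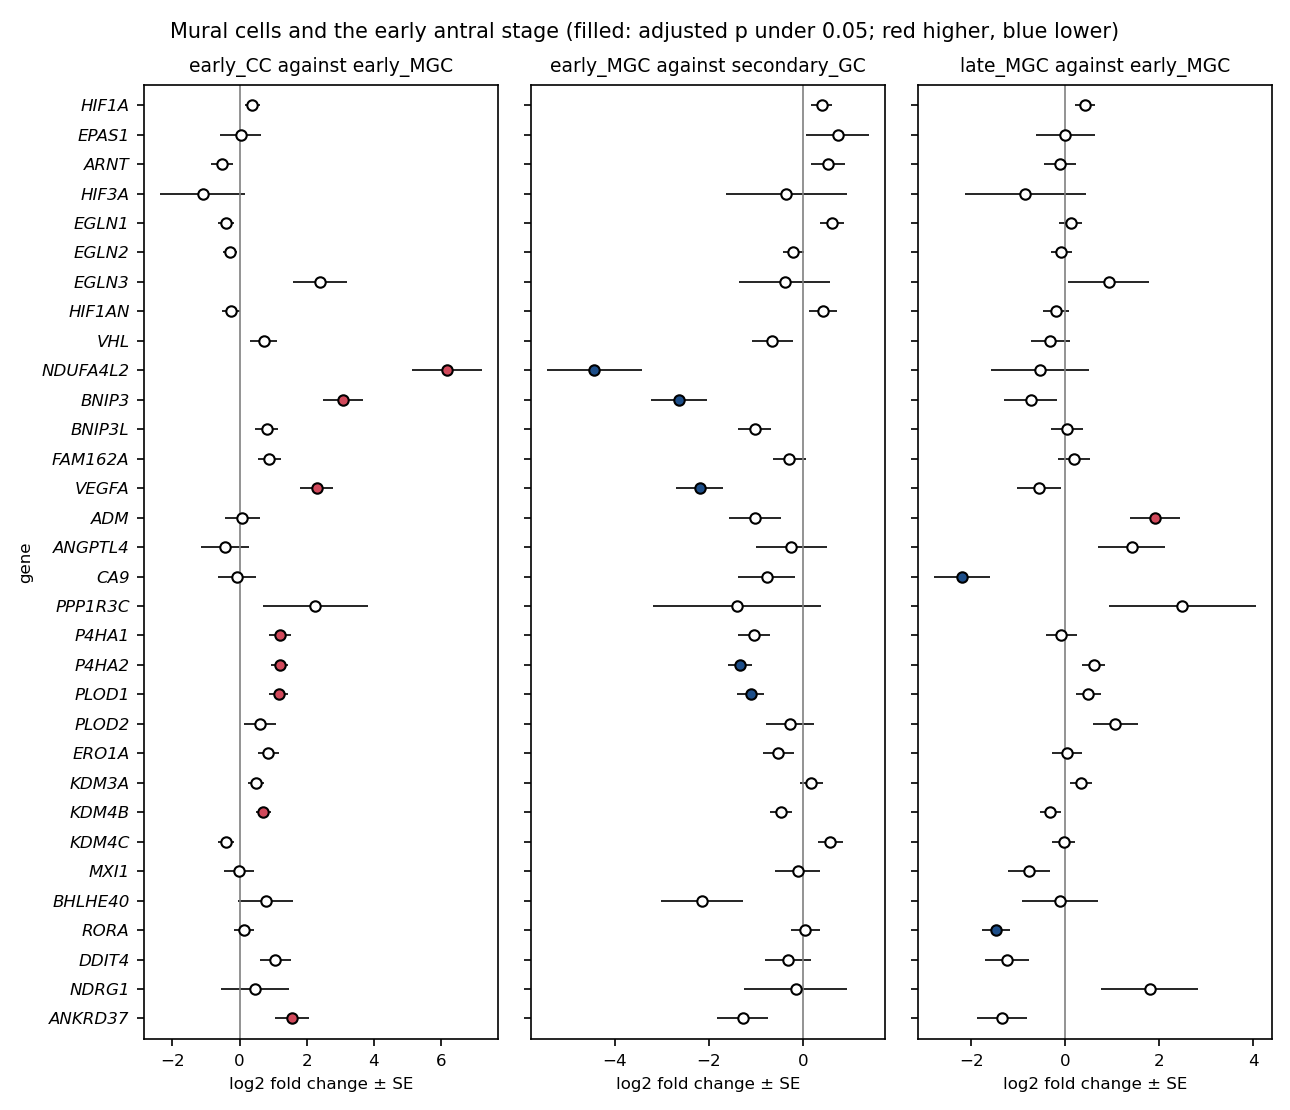
Log2 fold change with its SE for each tested member in early_CC against early_MGC (left), early_MGC against secondary_GC (middle) and late_MGC against early_MGC (right), positive where the group named first is higher; filled points have an adjusted p under 0.05. NDUFA4L2, BNIP3, VEGFA, P4HA2 and PLOD1 are called in the left and middle panels, which share the early_MGC libraries.

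The late against early change was then set directly against itself in the 2 cell types, as an interaction of stage and cell type. It was more positive in cumulus than in mural cells for 17 members (53.1%) and more negative for none, where 14.5% of all genes were called in that direction and 31.4% in either. VEGFA (4.37 ± 0.69, adjusted p = 7.5e-05), EGLN3 (3.97 ± 1.13, adjusted p = 0.010), DDIT4 (3.83 ± 0.67, adjusted p = 2.1e-04), BHLHE40 (3.58 ± 1.18, adjusted p = 0.026) and CA9 (3.45 ± 0.83, adjusted p = 0.0033) had the largest differences among those called. The others were RORA, MXI1, KDM4C, ANKRD37, P4HA1, KDM3A, ERO1A, EGLN1, ARNT, PLOD1, HIF1A and KDM4B. BHLHE40 reached 6.08 without late_MGC 3 and lost its call without early_MGC 5 (3.12, adjusted p = 0.055). EGLN3 reached 4.88 without late_MGC 3, and lost its call without early_MGC 3 (2.95, adjusted p = 0.098) and with limma-voom (adjusted p = 0.10). MXI1 was 3.7 without late_MGC 3, ANKRD37 2.99 without late_MGC 1 and DDIT4 4.42 without early_CC 3. Limma-voom gave 4.96 for BHLHE40 and 4.22 for CA9, and P4HA1 was 2.21 without the 2 libraries that stand apart. Calls were also lost by ARNT in 8 of 20 fits without 1 library (early_CC 1, 4 or 5, early_MGC 4 or 5, late_CC 3 or 4 or late_MGC 1) and without the count filter (adjusted p = 0.056 to 0.070), by ERO1A without late_CC 4 (adjusted p = 0.053) and with limma-voom, and by ANKRD37 without the count filter and with limma-voom. NDUFA4L2 was not called (3.23 ± 1.32, adjusted p = 0.069), and was without late_CC 3 (3.54, adjusted p = 0.0098) or early_MGC 5 (adjusted p = 0.043), with DESeq2 (3.33) and among genes of at least 10 CPM (3.47). EPAS1, at 0.95 ± 0.87, was called with limma-voom (1.89) and without late_MGC 3 (2.77, adjusted p = 1.0e-04). In the fit without the 2 libraries, 23 members were called more positive and VHL more negative (-1.4), where 36.5% of all genes were called.

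Other genes of the pathway did not move as one. Of 19 further regulators of HIF, 4 rose and 5 fell in late_CC against early_CC, with a median of 0.26; this is near the background of 45.2% of all tested genes called in that comparison (22.5% higher, 22.7% lower). WSB1, a ubiquitin ligase subunit that acts on VHL, rose to 569 ± 169 CPM in late_CC, against 115 ± 22.3 CPM in early_CC (2.3 ± 0.27, adjusted p = 5.7e-07), and was higher in late_CC than in late_MGC (3.37 ± 0.28). ELOB and ELOC, the elongins that join VHL to its ubiquitin ligase, fell to 506 ± 129 and 110.3 ± 29.6 CPM in late_CC, against 1222 ± 136 and 230.2 ± 18.5 CPM in early_CC (-1.24 ± 0.21 and -1.06 ± 0.21). Both were also lower in late_CC than in late_MGC (-1.51 ± 0.21 and -1.34 ± 0.22). USP20, a deubiquitinase, rose in cumulus cells (1.02 ± 0.39, adjusted p = 0.038), a call lost without the 2 libraries that stand apart.

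Of 37 further tested targets outside glycolysis, 13 rose and 4 fell in late_CC against early_CC, where 45.2% of all tested genes were called, and 18 were higher and 3 lower in late_CC than in late_MGC, where 39.7% were called. Taken in either direction, the first count is near its background. By direction, 22.5% of all tested genes were called higher and 22.7% lower in the first comparison, and 18.9% and 20.8% in the second. The list thus held more rises than falls in the first, where all genes had about as many of each. Of those that fell, TF, the iron carrier transferrin, had 0 counts in every late_CC library and averaged 0.699 ± 0.669 CPM in early_CC. PGF, a placental growth factor of the VEGF family, averaged 366 ± 190.1 CPM in late_CC and 52.8 ± 8.08 CPM in early_CC (2.77 ± 0.67, adjusted p = 0.0020), and was 3.17 ± 0.68 above late_MGC. ANGPT2, a ligand of the vessel receptor TEK, averaged 120.1 ± 27.6 CPM in late_CC and 14.8 ± 5.9 CPM in early_CC (3.02 ± 0.39). The transcription factor KLF10 averaged 443 ± 172 CPM in late_CC and 48.5 ± 11.4 CPM in early_CC (3.18 ± 0.48). Of 7 tested VEGF family members and receptors, VEGFA excepted, 2 rose and 3 fell in late_CC against early_CC (22.5% and 22.7% of all tested genes). The 2 that rose were PGF, already counted among the 37 targets, and NRP1 (1.59 ± 0.63, adjusted p = 0.046). NRP1 lost its call without the 2 libraries that stand apart (0.36, adjusted p = 0.56). NRP2, a co-receptor, fell at low counts to 0.111 ± 0.248 CPM in late_CC, against 1.48 ± 1.14 CPM in early_CC (adjusted p = 0.020). FLT1, a VEGF receptor, fell in cumulus cells to 3.01 ± 2.48 CPM in late_CC, against 18.8 ± 5.79 CPM in early_CC (-2.6 ± 0.43), and in mural cells to 1.57 ± 1.01 CPM in late_MGC, against 30.8 ± 7.4 CPM in early_MGC (-4.2 ± 0.47). FLT1 also had the highest mean of the summed endothelial markers in every group but late_MGC. There CLDN5 led through late_MGC 3 alone, at 16.7 CPM against 0 to 0.285 CPM in the rest of the group. FLT1 stood at 1.08 to 3.32 CPM in that rest. Of these 11 markers, 6 were at 0 counts in early_CC, 3 each in secondary_GC, early_MGC and late_MGC, and 2 in late_CC. TEK was found in every library, at 0.209 to 4.06 CPM. VEGFC was higher in early_CC than in secondary_GC (1.18 ± 0.24, adjusted p = 0.0094).

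Of 7 further collagen hydroxylation genes, 5 rose and none fell in late_CC against early_CC (45.2% of all tested genes called, 22.5% higher), with a median of 1.01. The prolyl 3-hydroxylase P3H3 averaged 141 ± 54.6 CPM in late_CC and 22.8 ± 6.11 CPM in early_CC (2.62 ± 0.56), and P4HB, the partner subunit of P4HA1 and P4HA2, 2389.8 ± 1059.7 and 1051 ± 228 CPM (1.16 ± 0.26). Of 12 further mitophagy genes, 5 rose and 3 fell in the same comparison, with a median of -0.07. The receptor FUNDC1 fell to 82.2 ± 20.1 CPM in late_CC, against 244 ± 33.6 CPM in early_CC (-1.56 ± 0.24), whereas the kinase PINK1 (0.84 ± 0.22) and GABARAPL1 (1.88 ± 0.38), which binds such receptors, rose. FKBP8, another receptor, was higher in early_CC than in early_MGC, at 49.8 ± 13.1 and 16 ± 3.63 CPM (1.52 ± 0.31), and lower in early_MGC than in secondary_GC (-1.74 ± 0.32). It fell to 19.3 ± 6.12 CPM in late_CC, against 49.8 ± 13.1 CPM in early_CC (-1.36 ± 0.31). Of 20 tested glycolytic HIF targets, 9 rose and 1 fell in late_CC against early_CC (45.2% of all tested genes called, 22.5% higher). In late_CC, 18 were higher and 1 lower than in late_MGC (39.7% called, 18.9% higher). In early_CC, 13 were higher and none lower than in early_MGC (13.1% called, 6.71% higher). In early_MGC, 9 were lower and none higher than in secondary_GC (9.1% called, 4.08% lower). The lactate transporter SLC16A3 averaged 197 ± 111 CPM in late_CC and 1.75 ± 2.0 CPM in late_MGC (6.45 ± 0.79), and PFKFB3, which makes the activator of phosphofructokinase, 214 ± 131 CPM in late_CC and 5.6 ± 0.751 CPM in late_MGC (5.0 ± 0.45). Without late_CC 3 and late_MGC 3, the glycolytic counts were 16 and 1, 18 and 1, 15 and 15 in the same order. The shares of all genes called were then 49.0%, 41.0%, 21.4% and 16.4%. For late_CC against early_CC, that fit gave 3 risen and 6 fallen for the HIF regulators and 15 and 6 for the targets outside glycolysis. It gave 1 and 4 for the VEGF family, 5 and 0 for the collagen genes and 4 and 3 for the mitophagy genes. Of all genes, 23.5% were called higher and 25.5% lower there. These lists were chosen with earlier results known, and nothing was tested for a list as a whole.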

How the data were processed

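The deposited table holds whole-number read counts per gene for 24 libraries of total RNA amplified with a low-input SMART-Seq kit. Per the file headers, the authors counted reads over exons of each gene with featureCounts 2.0.0 from Ensembl 105 annotation of ARS-UCD1.2 (bosTau9), with no option for strand, so sense and antisense reads cannot be told apart. Per the submitters' processing notes, fastp 0.20.0, HISAT2 2.1.0 and SAMtools 1.10 were used. Exon length per gene was deposited beside the counts. Of 25 columns of values, 1 (reads assigned to no sample) was not used. No 2 libraries of a group agreed within sampling noise (in 46 pairs the chi-square was at least 17.4 times its degrees of freedom).

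Symbols were assigned by position from the RefSeq gene table, with an overlap of at least 0.5 of the union or a matching end within 200 bases. This second step was added after 3 members had no match, and P4HA2 and CA12 rest on it. Symbols were found for 88.4% of the 12219 genes that averaged 1 CPM or more. CPM are counts per 1000000 of the library's total. Python 3.11.15 with pandas 2.3.3 and matplotlib 3.10.9, and R 4.3.3, were used. edgeR 4.0.16 (TMM, filterByExpr, robust quasi-likelihood fit) tested all groups in 1 fit over 14298 genes, with a biological coefficient of variation of 42.4% and Benjamini-Hochberg adjustment over all of them. Alternatives were RLE scaling, no filter, a mean of at least 10 CPM, limma-voom (limma 3.58.1), DESeq2 1.42.0, groups compared alone, each library left out, the replicate number as a block and, chosen after seeing the data, leaving out late_MGC 3 and late_CC 3. Total counts were at least 8379801 per library. Simulated counts had equal group means, apart from a small set of genes changed by known folds. Far more genes differed in the data, so the shares recovered there may be other than these. In the simulation, the late_CC against early_CC fit recovered 73% of 4-fold and 34% of 2-fold changes, the highest shares of any comparison. The interaction recovered 58% and 10%, early_MGC against secondary_GC 56% and 20%, and early_CC against secondary_GC 69% and 24%. A member not called there may therefore still differ.

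The members and lists were chosen with earlier results of these data known. Every called member is named; values of every library are given for at most 16 members called at 2-fold or more, in order of smallest adjusted p, and for HIF1A, EPAS1, VEGFA, NDUFA4L2 and BNIP3; of the other lists, some of the up to 4 called genes of largest change per comparison are named. Replicate numbers of secondary_GC and late_MGC follow the table's columns and only name libraries.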

Additional observations from a re-analysis of the deposited data

Results flagged for a closer look

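A library lay far from the rest of its group in 12 of 90 sets of values tried. For independent sets, chance gives about 1 in 20. These sets share libraries, so the count cannot be read as an excess over chance. Late_MGC 3 accounted for 4 of the 12, being high at 92.2 CPM for P4HA1, 1.93 CPM for EGLN3, 273 CPM for EGLN1 and 37 CPM for EPAS1. It is the library with few granulosa marker reads, high LUM, DCN and PDGFRA and low INSL3. Late_MGC 1 was high for ANKRD37, at 5.22 CPM, and BNIP3, at 15.5 CPM. Late_CC 3 was low for EGLN1, at 152 CPM. Secondary_GC 2 was high for VEGFA, at 117 CPM, and low for HIF1A, at 401 CPM. DDIT4 was high in early_CC 3, at 324 CPM, and in early_MGC 2, at 93 CPM, and ADM was high in early_MGC 5, at 163 CPM.

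The late against early change differed between cumulus and mural cells, by edgeR's test of the interaction, for 17 members. Their log2 differences, cumulus change minus mural change, were KDM4C 2.6, RORA 2.66, VEGFA 4.37, DDIT4 3.83, KDM3A 1.39, EGLN1 1.38, CA9 3.45, MXI1 2.66, HIF1A 1.07, EGLN3 3.97, P4HA1 1.56, KDM4B 1.06, PLOD1 1.23, ERO1A 1.39, ANKRD37 2.2, BHLHE40 3.58 and ARNT 1.32 (adjusted p from 1.2e-05 for KDM4C to 0.034 for ARNT). These differences rest on the members' own values given above, and the part of the 2 libraries that stand apart is given beside them there.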

How the results depend on the processing

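Of 78 calls of a member, 63 held under every alternative run and 15 were lost under at least 1. The count of members called moved by over 1.5 times in 4 comparisons. The share of all genes called was taken only for the main fit and the fit without the 2 libraries that stand apart, so the other counts below have no background beside them. Early_MGC against secondary_GC gave 10 with these groups alone and 11 without the 2 libraries that stand apart. Early_CC against secondary_GC gave 1 with limma-voom, 1 with DESeq2, 4 with the groups alone and 3 without the 2 libraries. Late_MGC against early_MGC gave 5 with DESeq2, 10 without the 2 libraries and 3 to 7 with 1 library left out. Early_CC against early_MGC gave 13 with the groups alone, 14 with the replicate block and 15 without the 2 libraries. Late_CC against early_CC gave 20 to 26 under every alternative and 23 with the replicate block, under which ERO1A (1.2, adjusted p = 0.078) and NDUFA4L2 (2.62, adjusted p = 0.14) were not called. Same-numbered libraries correlated by -0.07 to 0.28 in that comparison and by -0.14 to 0.33 in early_CC against early_MGC, where 1 and 2 libraries correlated best with their own number, so the numbers were not taken to pair libraries. No block was fitted in the other 4 comparisons, since late_MGC columns carry letters only and secondary_GC columns are numbered otherwise than the titles.

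Some values that were uncalled in the main fit changed sign. EPAS1 in late_MGC against early_MGC was -0.014 with RLE, -0.065 with the 10 CPM filter, -1.04 with limma-voom, -0.0094 with DESeq2, -0.022 alone, -1.81 without the 2 libraries and -1.81 to 0.26 with 1 library left out. By edgeR the fall was called without late_MGC 3 (adjusted p = 8.1e-04) and without the 2 libraries (adjusted p = 1.9e-04). EPAS1 stood at 37 CPM in late_MGC 3 and at 1.98 to 3.0 CPM in the rest of that group. EPAS1 in early_CC against early_MGC was -0.074 with the 10 CPM filter and -0.14 to 0.19 with 1 left out. VEGFA in early_CC against secondary_GC ran -0.26 to 0.55 and NDUFA4L2 in late_MGC against early_MGC -0.99 to 0.071. The cause was not tested. Members' medians kept their sign under RLE and total-count scaling. The planned count of promoter motifs was not run, since no promoter sequence was used here. Genes such as STC2, CA12 and HIF3A are limited by low counts.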
